A study of Mus musculus with 4 samples.

Results

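RNA levels of 10 platelet and megakaryocyte genes (Itga2b, Itgb3, Gp1bb, Gp9, Gp5, Pf4, Vwf, Selp, Rap1b and Fli1) were followed through HSC and CLP of WT and GRK6-/- mice. The 10 genes were picked by symbol from 12417 genes, with earlier results of these data known, so that their levels are a description and carry no test. HSC were sorted as Lin-c-kit+sca-1+ bone marrow cells, the gate of hematopoietic stem cells together with multipotent progenitors. CLP, the common lymphoid progenitors, were sorted by the same gate with Il-7Ra added. Both genotypes were C57BL/6 littermates of 8 to 12 weeks by the study's methods, and GRK6-/- mice lacked exons 3 to 9 of Grk6, which encodes a kinase of G protein-coupled receptors. Each of the 4 groups was 1 library, pooled from 13 to 15 cells of 3 to 4 mice whose cDNA was amplified cell by cell (20 cycles of PCR, then 10 more) before pooling. There were therefore no replicates, and neither the spread between mice nor that between cells could be measured. The unit was FPKM, fragments per kilobase of transcript scaled to the mapped fragments, which can be compared between genes. Where a library's table did not list a gene, the level was taken as 0 FPKM, and the gene is said to have no row there.

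Megakaryocytes are the large marrow cells that shed platelets, and they arise from the stem cell compartment, part of which already transcribes megakaryocyte genes. Platelets bind fibrinogen through integrin alphaIIb beta3 and bind von Willebrand factor through the GPIb-IX-V complex. Their alpha granules release chemokines and adhesion proteins, and the small GTPase RAP1B with talin turns the integrin to its active form. Transcription factors of the ETS and GATA families switch on many genes of this lineage.

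Itga2b, Gp9 and Pf4 shared a pattern over the libraries, with higher levels in WT HSC and GRK6-/- CLP and lower levels or no row in GRK6-/- HSC and WT CLP. The bases upstream of the annotated starts of these 3 genes are shown because their values varied together. Those of Gp5 are shown beside them because it held the most GATA matches. The sequences come from RefSeq (build GRCm38.p6, coordinates chr11:102469884-102470133 on the minus strand for Itga2b, chr5:90772185-90772434 on the plus strand for Pf4, chr6:87777820-87778069 on the plus strand for Gp9 and chr16:30310782-30311031 on the minus strand for Gp5). Each runs 5′ to 3′ along its gene for 250 bases and ends just before the start that RefSeq gives. The bases just after that start were found in an mm9 transcript of the gene for Itga2b and Pf4 but not for Gp9 and Gp5, so that for the last pair the start may differ from the annotation behind the FPKM. Capitals mark matches to an ETS core (AGGAAG or CGGAAG) or to a GATA motif (AGATA or TGATA followed by A or G) on either strand, and no ETS match overlapped a GATA match in the 4 sequences.
Itga2b: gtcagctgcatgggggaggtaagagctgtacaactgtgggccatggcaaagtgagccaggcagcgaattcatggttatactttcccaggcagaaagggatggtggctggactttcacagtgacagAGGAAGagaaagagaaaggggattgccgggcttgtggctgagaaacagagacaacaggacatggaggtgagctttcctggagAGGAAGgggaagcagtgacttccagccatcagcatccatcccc
Pf4: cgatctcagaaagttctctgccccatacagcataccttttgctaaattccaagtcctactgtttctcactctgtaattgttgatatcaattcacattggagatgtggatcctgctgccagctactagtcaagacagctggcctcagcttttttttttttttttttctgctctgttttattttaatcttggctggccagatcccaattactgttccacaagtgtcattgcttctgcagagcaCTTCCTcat
Gp9: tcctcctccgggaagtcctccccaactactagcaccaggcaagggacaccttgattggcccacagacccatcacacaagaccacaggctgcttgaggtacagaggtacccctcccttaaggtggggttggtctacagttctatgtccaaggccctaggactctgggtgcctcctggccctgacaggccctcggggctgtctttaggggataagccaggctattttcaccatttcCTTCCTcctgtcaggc
Gp5: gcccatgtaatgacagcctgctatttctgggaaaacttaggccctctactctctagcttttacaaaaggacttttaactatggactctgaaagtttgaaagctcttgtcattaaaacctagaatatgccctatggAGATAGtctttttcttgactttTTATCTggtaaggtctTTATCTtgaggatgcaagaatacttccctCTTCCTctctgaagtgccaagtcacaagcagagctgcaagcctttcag

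The table held windows for 7 of the 10 genes, all but Itgb3, Vwf and Fli1. An ETS core lay in 7 of these 7 windows, where 39.2% of all 32851 windows of this length held one. Itga2b had a pair of them, starting at bases -125 and -43 from the start, while Pf4 had 1 at base -9 and Gp9 1 at base -16. A GATA motif lay in 2 of 7, Gp5 with 3 matches and Gp1bb with 1, beside 26.5% of all windows. TATAAA lay in none of the 7 and in 12.4% of all windows. The letters were chosen after these windows had been seen, so that the shares of all windows beside the counts are no test of enrichment. For Rap1b, as for Gp9 and Gp5, the bases after the start were not found in an mm9 transcript. A match to these letters is a description of the sequence and does not show that a factor was bound.

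The libraries were checked against their gates before the levels were compared. Il7r, the receptor used to sort CLP, had no row in WT HSC and 1.08 FPKM in GRK6-/- HSC, against 120 in WT CLP and 75.1 in GRK6-/- CLP. Kit and Cd34, stem and progenitor surface proteins, had rows in all 4 libraries, though Cd34 is not part of the stated gate. Ly6a, which encodes the Sca-1 of the gate, was not checked, because it was not among the 7 of 8 genes of the HSC gate list that were analysed. Other genes of the gates were less even, since Rag2, a recombinase of lymphoid progenitors, had 94.5 FPKM in WT CLP and no row in GRK6-/- CLP, and Procr, a surface protein of stem cells, had no row in WT HSC. The summed HSC gate list was lowest in WT HSC, at 275 FPKM, and highest in GRK6-/- CLP, at 478. Grk6 itself was not lower in the libraries labelled GRK6-/-, at 89.4 FPKM against 42.7 in HSC and 57.6 against 26.9 in CLP. That value covers the whole gene, including the exons outside the deletion, and so does not check the labels. WT and GRK6-/- therefore name the libraries as labelled in every comparison. The steps in the low values corresponded to between 2790000 and 4360000 fragments per library, an estimate of what the FPKM were scaled to. In the shallowest library, GRK6-/- CLP, 1 fragment in a transcript of 2 kb was worth about 0.179 FPKM, which bounds how low a level could be seen.

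**Figure D1:**
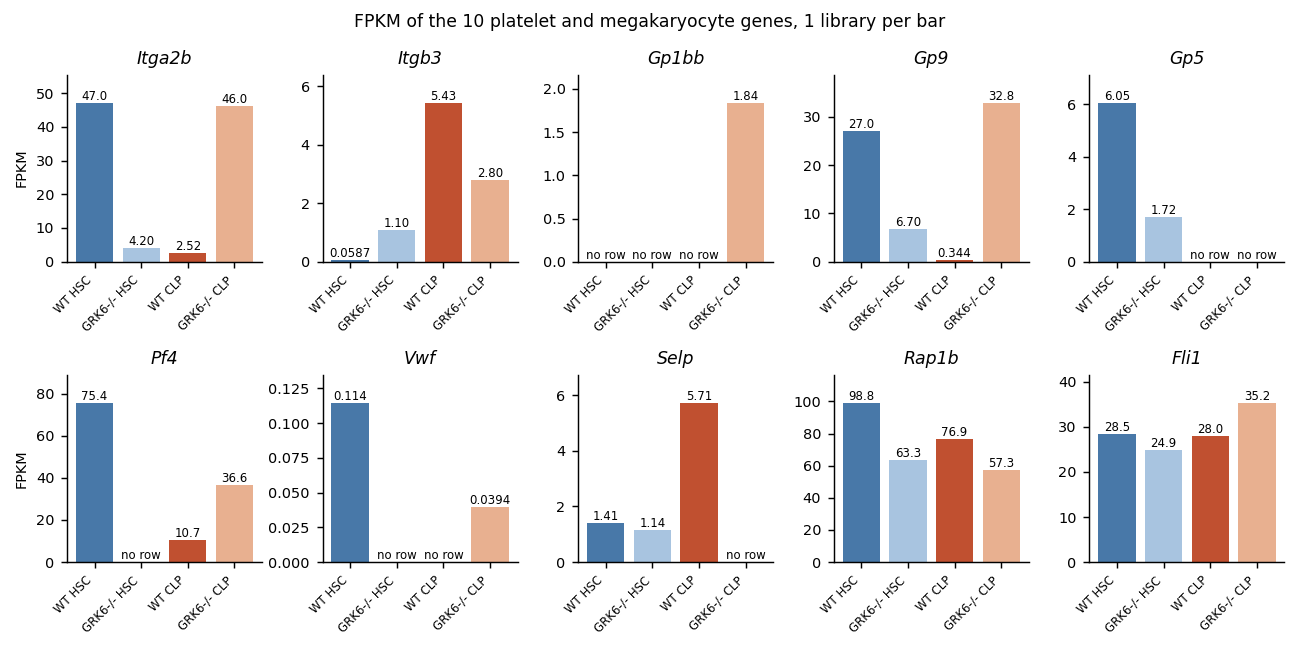
FPKM (y axis, a separate linear scale from 0 for each gene) of the 10 genes in the 4 libraries (x axis), with 1 library per bar and no error bars because there were no replicates. Itga2b stood at 47.0 and 46.0 FPKM in WT HSC and GRK6-/- CLP and at 4.20 and 2.52 in the other two, while Rap1b and Fli1 had similar bars throughout.

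Itga2b and Itgb3, the chains of the platelet fibrinogen receptor, did not follow the same order over the libraries. Itga2b encodes integrin alphaIIb, also known as CD41 (Entrez Gene 16399, mm9 chr11:102314611-102331197, minus strand, 30 exons in the longest annotated transcript). It had 47.0 FPKM in WT and 4.20 in GRK6-/- HSC, and 2.52 in WT and 46.0 in GRK6-/- CLP. In fragments these levels corresponded to about 469, 55, 38 and 442. The gene was thus 11.2-fold lower in GRK6-/- HSC than in WT HSC and 18.3-fold higher in GRK6-/- CLP than in WT CLP. Its level relative to the genes with a row in the same library lay at the percentiles 82.8 and 33.2 in HSC and 20.15 and 81.5 in CLP, WT first.

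Itgb3 encodes the beta3 chain (Entrez Gene 16416, mm9 chr11:104469314-104531785, plus strand), which platelets share with endothelial cells and osteoclasts, where it pairs with integrin alphaV. Its level was 0.0587 FPKM in WT HSC, about 1 fragment, and 1.10 in GRK6-/- HSC. In CLP it was 5.43 FPKM in WT and 2.80 in GRK6-/-. WT HSC, 1 of the libraries with the most Itga2b, therefore held the least Itgb3. The ratio of Itga2b to Itgb3 in FPKM was 3.81 in GRK6-/- HSC, and in CLP it was 0.464 in WT and 16.5 in GRK6-/-. On the scale of log2(FPKM + 1) the genotype difference of Itgb3 was 0.99 in HSC, just under the 2-fold mark, and -0.76 in CLP.

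The GPIb-IX-V complex is the platelet receptor for von Willebrand factor, and 3 of its genes were members. Gp9 encodes its small IX subunit (Entrez Gene 54368, mm9 chr6:87728130-87729756, plus strand, 2 exons). It had 27.0 FPKM in WT and 6.70 in GRK6-/- HSC, and 0.344 in WT and 32.8 in GRK6-/- CLP. The order of the libraries matched that of Itga2b except that the highest pair changed places. Gp9 was 4.03-fold lower in GRK6-/- HSC than in WT HSC. No fold is given for CLP, since the WT value came from about 1 fragment beside about 74 in GRK6-/- CLP, and the log2 ratio of FPKM + 1 was 4.65.

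Gp5, the V subunit, which thrombin cleaves (Entrez Gene 14729, mm9 chr16:30307779-30310865, minus strand), was seen in HSC and had no row in either CLP library. Its level was 6.05 FPKM in WT HSC and 1.72 in GRK6-/- HSC, 3.51-fold lower, from about 39 and 14 fragments. Gp1bb, the beta chain of GPIb (Entrez Gene 14724), had a row in GRK6-/- CLP alone, at 1.84 FPKM or about 9 fragments. The locus of that row (mm9 chr16:18620412-18630031) reached past Gp1bb, whose annotation ends at base 18622496, across the neighbouring gene Sept5 on the same strand, from 18621904 to 18630004. Fragments of the 2 genes cannot be told apart in that row. Gp1ba, which encodes the chain that binds von Willebrand factor and is not one of the 10, had 1.55 FPKM in GRK6-/- HSC and no row elsewhere. No library thus had rows for all 4 genes of the complex. Gp9 was the highest of them in each, though in WT CLP it rested on about 1 fragment and the others had no row.

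Pf4, Vwf and Selp encode proteins stored in platelet granules, and Selp was highest in another library than Pf4 and Vwf. Pf4 encodes platelet factor 4, the chemokine CXCL4 (Entrez Gene 56744, mm9 chr5:91201461-91202409, plus strand, 3 exons). Pf4 had 75.4 FPKM in WT and no row in GRK6-/- HSC, and 10.7 in WT and 36.6 in GRK6-/- CLP, corresponding to about 128, 0, 27 and 60 fragments. It was the second highest of the 10 genes in WT HSC, and in CLP it was 3.43-fold higher in GRK6-/- than in WT. No fold is given for HSC, where GRK6-/- had no row. Of 3582 genes with at least 10 FPKM in each of the other 3 libraries, 16 had no row in GRK6-/- HSC.

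Selp encodes P-selectin, which moves to the surface of activated platelets and endothelial cells (Entrez Gene 20344, mm9 chr1:166045395-166080157, plus strand). Its level was highest in WT CLP, at 5.71 FPKM, against 1.41 in HSC of WT and 1.14 in HSC of GRK6-/- mice, and it had no row in GRK6-/- CLP. Selp therefore did not share the pattern of Pf4. Gm16548, annotated on the opposite strand over the end of Selp, had 9.02 FPKM in WT CLP and 13.2 in GRK6-/- CLP and no row in HSC. Since strand is not stated for the counting, reads of the 2 genes may not have been told apart. Vwf, the ligand of GPIb and a marker of a platelet-biased part of the stem cells (Entrez Gene 22371, mm9 chr6:125502981-125636695, plus strand), was at the limit of detection. It had 0.114 FPKM in WT HSC and 0.0394 in GRK6-/- CLP, about 3 and 1 fragments over an 8834 bp transcript, and no row in the other two libraries.

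Rap1b and Fli1 were expressed at similar levels in all 4 libraries. Rap1b, the main RAP1 GTPase of platelets (Entrez Gene 215449, mm9 chr10:117250923-117283030, minus strand), was the highest of the 10 genes in each of the 4 libraries, with 98.8 FPKM in WT and 63.3 in GRK6-/- HSC, and 76.9 in WT and 57.3 in GRK6-/- CLP. It was 1.56-fold lower in GRK6-/- HSC and 1.34-fold lower in GRK6-/- CLP than in WT. Fli1, an ETS transcription factor needed for late megakaryocyte genes (Entrez Gene 14247, mm9 chr9:32229793-32348953, minus strand), had 28.5 FPKM in WT and 24.9 in GRK6-/- HSC, and 28.0 in WT and 35.2 in GRK6-/- CLP. The genotype differences of Fli1 were 1.14-fold in HSC and 1.26-fold in CLP, the smallest ratios among the members with at least 1 FPKM in both libraries. Both genes are also used outside the platelet lineage. Without Rap1b and Fli1, the other 8 members summed to 157 FPKM in WT and 14.9 in GRK6-/- HSC, and 24.7 in WT and 120 in GRK6-/- CLP. Itga2b, Pf4 and Gp9 made up most of the sums in WT HSC and GRK6-/- CLP, while Itgb3 and Selp were highest in WT CLP. In bulk pools such as these, fewer cells with a transcript and less of it per cell cannot be told apart.

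Counted at a 2-fold difference in FPKM + 1, 4 of the 9 members with a row in HSC were lower in GRK6-/- HSC (Itga2b, Gp9, Gp5 and Pf4) and 0 were higher. Among all genes 37.4% were 2-fold apart in that comparison with 19.3% higher and 18.0% lower. In CLP, 4 of 9 were higher in GRK6-/- (Itga2b, Gp9, Pf4 and Gp1bb) and 1 was lower (Selp), where 50.0% of all genes were 2-fold apart, 26.6% higher and 23.4% lower. The median log2 ratio of the members was -0.64 in HSC and 0.32 in CLP, beside 0.05 over all genes in each. A 2-fold difference was common at these levels, since 50.8% of genes with a mean of 1 to 10 FPKM and 35.6% of those with 10 to 100 FPKM showed one in HSC, and 66.2% and 48.1% in CLP. At a 4-fold difference 2 members were counted in HSC and 3 in CLP, beside 12.4% and 24.8% of all genes. Itga2b, Gp9 and Pf4 were lower in GRK6-/- HSC and higher in GRK6-/- CLP, 3 of the 8 members with a value in both populations, and 5.69% of all genes, or 5.41% of those with a mean of 10 to 100 FPKM, showed that combination. The reverse combination was found in 0 of the 8 and in 5.07% of all genes. No test was made on these counts, because the members were chosen with these values known.

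**Figure D2:**
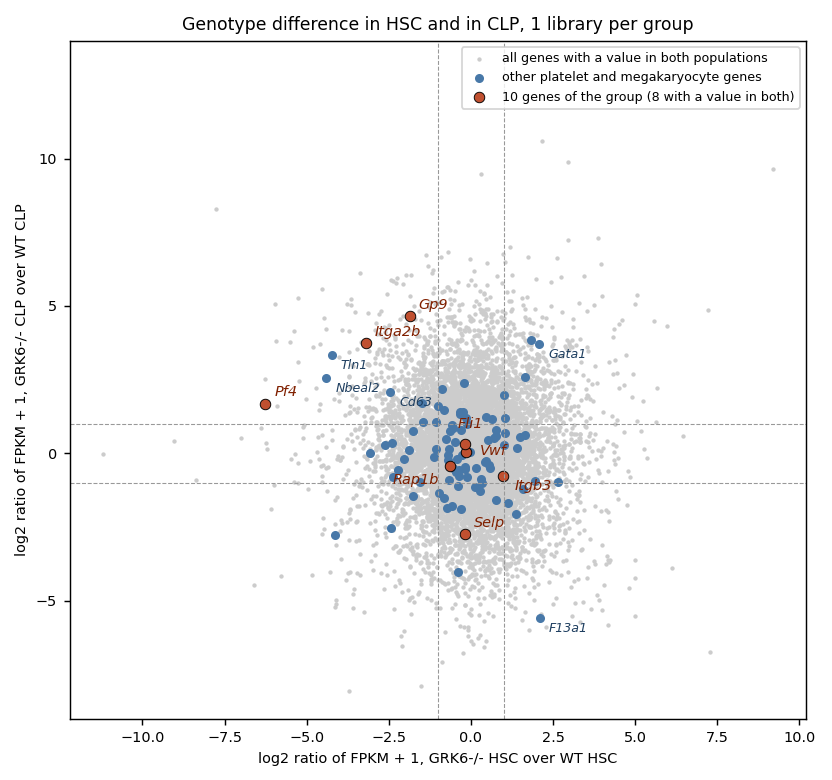
Log2 ratio of FPKM + 1 of GRK6-/- over WT in HSC (x axis) and CLP (y axis), with 1 point per gene and dashed lines at a 2-fold difference. Grey points are all genes, blue points the other platelet and megakaryocyte genes and red points the 8 members with a value in both populations. Itga2b, Gp9 and Pf4 lie at the upper left with Tln1, Nbeal2 and Cd63, while Rap1b, Fli1 and Vwf lie near the center.

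The populations were also compared within each genotype, with the same 4 libraries as in the genotype comparisons. In WT mice 4 of 9 members were lower in CLP than in HSC (Itga2b, Gp9, Gp5 and Pf4) and 2 were higher (Itgb3 and Selp), where 46.5% of all genes were 2-fold apart, 24.7% lower and 21.8% higher. Itga2b was 18.7-fold and Pf4 7.07-fold lower in WT CLP than in WT HSC. In GRK6-/- mice the direction was the other one for Itga2b, Gp9 and Pf4, but not for Gp5. Of 10 members, 4 were higher in GRK6-/- CLP than in GRK6-/- HSC (Itga2b, Gp9, Pf4 and Gp1bb) and 2 were lower (Gp5 and Selp), beside 45.6% of all genes 2-fold apart, 22.3% higher and 23.4% lower. Itga2b was 10.96-fold and Gp9 4.90-fold higher in GRK6-/- CLP than in GRK6-/- HSC. A 2-fold difference between the populations was found in 61.2% of genes with a mean of 1 to 10 FPKM and 44.9% of those with 10 to 100 FPKM in WT, and in 60.2% and 44.6% in GRK6-/- mice. At 4-fold, 5 members were counted in WT and 3 in GRK6-/- mice, beside 20.5% and 19.1% of all genes.

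A list of 110 symbols of other platelet and megakaryocyte genes was described in the same way, and 98 of them had a row in at least 1 library. In HSC 18 were higher and 24 lower in GRK6-/-, of 96 with a value, with a median log2 ratio of -0.33, where 19.3% of all genes were higher and 18.0% lower. In CLP 23 were higher and 18 lower of 91, with a median of 0.03, beside 26.6% and 23.4% of all genes. The counts by role rest on few genes each and are to be read against the 37.4% of all genes that were 2-fold apart in HSC and the 50.0% in CLP. The combination seen for Itga2b, lower in GRK6-/- HSC and higher in GRK6-/- CLP, was found in 7 of 89, or in Tln1, Nbeal2, Cd63, Cd9, P2rx1, Vps33b and Mecom, the last named after its values had been seen. That is 7.87% of the genes compared, near the 5.69% of all genes with the combination. The reverse combination was found in F13a1, Btk, Clu and Vegfa of the 89, beside 5.07% of all genes. Mecom, which encodes a zinc finger factor of stem cells, was low in every library, at 6.42 and 2.67 FPKM in WT and GRK6-/- HSC and 1.52 and 6.65 in CLP. Tln1, which encodes the talin that binds the integrin beta tail, had 320 FPKM in WT and 15.9 in GRK6-/- HSC, and 19.7 in WT and 207 in GRK6-/- CLP.

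Among 17 granule and secreted protein genes, Nbeal2, which is needed to form alpha granules, had 157 FPKM in WT and 6.46 in GRK6-/- HSC, and 10.3 in WT and 65.4 in GRK6-/- CLP. Vps33b, another gene of alpha granule formation, had 26.2, 8.79, 1.89 and 8.41 FPKM in that order, HSC before CLP and WT before GRK6-/-. F13a1, the A chain of clotting factor XIII, ran the other way, with 5.28 FPKM in WT and 26.0 in GRK6-/- HSC, and 55.8 in WT and 0.185 in GRK6-/- CLP. Pdgfb, a growth factor of alpha granules, had a row in GRK6-/- CLP alone, at 11.95 FPKM. Ppbp, the chemokine gene next to Pf4, had 2.20 FPKM in GRK6-/- HSC and no row elsewhere. It was thus seen, at a low level, where Pf4 was not, and its fragments were not estimated. In HSC 4 genes of this group were higher and 3 lower in GRK6-/- of 15, and in CLP 4 were higher and 3 lower of 13.

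Among 22 receptor and surface genes, 4 were higher and 6 lower in GRK6-/- HSC of 17, and 5 were higher and 3 lower in GRK6-/- CLP of 14. Cd63, a granule membrane tetraspanin, had 318 FPKM in WT and 57.0 in GRK6-/- HSC, and 41.9 in WT and 182 in GRK6-/- CLP. Cd9, a related tetraspanin of the platelet surface, had 83.7, 39.7, 35.3 and 74.6 FPKM in that order. P2rx1, an ATP-gated channel of platelets, followed with 18.5, 6.01, 5.73 and 13.1 FPKM. These 3 surface genes were thus highest in the same pair of libraries as Itga2b. Treml1, a receptor of platelet alpha granules, was high only in WT HSC among the 4 libraries, at 37.5 FPKM against 0.238 in GRK6-/- HSC and no row in CLP. Itga2, the platelet collagen receptor chain, had 30.4 FPKM in GRK6-/- CLP and no row elsewhere. Other receptor genes of the list ran differently. Cd36 was higher in GRK6-/- in both populations, with 2.53 FPKM against no row in HSC and 14.3 against 0.0670 in CLP. Cd151 had 23.5 FPKM in GRK6-/- HSC against 6.87 in WT HSC. Tbxa2r and Pear1 were lower in GRK6-/- CLP than in WT CLP, at 10.4 against 40.3 FPKM and 5.46 against 21.2.

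The genes of integrin activation and platelet signaling numbered 28; with 26 of them compared, GRK6-/- had 5 higher and 7 lower in HSC and 4 higher and 4 lower in CLP. Rap1a, the close relative of Rap1b, had 90.8 FPKM in WT and 73.5 in GRK6-/- HSC, and 78.7 in WT and 137 in GRK6-/- CLP. Fermt3, kindlin-3, the other activator that binds the beta tail, was higher in GRK6-/- in both populations, with 179 against 88.5 FPKM in HSC and 142 against 34.97 in CLP. It did not follow Tln1. Plcg2, a phospholipase downstream of platelet collagen receptors, had 109 FPKM in GRK6-/- CLP against 23.4 in WT CLP. Ilk, an adapter kinase at the integrin tail, had 82.8 FPKM in GRK6-/- HSC against 12.4 in WT HSC.

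Of 14 cytoskeletal genes 1 was lower and 0 were higher in GRK6-/- HSC, and 2 were higher and 2 lower in GRK6-/- CLP, of 13. Flna, the filamin that anchors GPIb to actin, stood out in WT CLP with 216 FPKM, against 22.7 and 17.1 in WT and GRK6-/- HSC and 12.4 in GRK6-/- CLP. Ptgs1, the cyclooxygenase of thromboxane synthesis, had 24.6 FPKM in WT and 2.02 in GRK6-/- HSC, and 20.9 in WT and 21.2 in GRK6-/- CLP. Tbxas1, thromboxane synthase, was lower in GRK6-/- in both populations, at 12.8 against 45.7 FPKM in HSC and 6.62 against 20.0 in CLP. They were 2 of 3 arachidonate enzymes with a value, and the 2 lower in GRK6-/- HSC.

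Among the lineage's transcription factors, of which 22 were compared, only Mecom had the combination of Itga2b, Gp9 and Pf4, and the counts were 5 higher and 5 lower in GRK6-/- HSC and 8 higher and 5 lower in GRK6-/- CLP. Gata1, the GATA factor of megakaryocytes and red cells, was higher in GRK6-/- in both populations, with 26.1 against 5.45 FPKM in HSC and 15.7 against 0.265 in CLP. Gfi1b, a repressor of the same lineages, was higher as well, at 25.8 against 7.66 FPKM in HSC and 24.7 against 3.22 in CLP. Gata2, the GATA factor of stem cells, was highest in WT HSC and lowest in GRK6-/- CLP, with 62.8, 35.1, 27.6 and 8.89 FPKM over the 4 libraries, HSC before CLP and WT before GRK6-/-. Mkl1, a coactivator of Srf, had 16.8 FPKM in HSC and 5.82 in CLP of WT mice and no row in either GRK6-/- library. Srf itself was lower in GRK6-/- in both populations, at 3.15 against 21.3 FPKM in HSC and 1.13 against 11.4 in CLP.

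**Figure D3:**
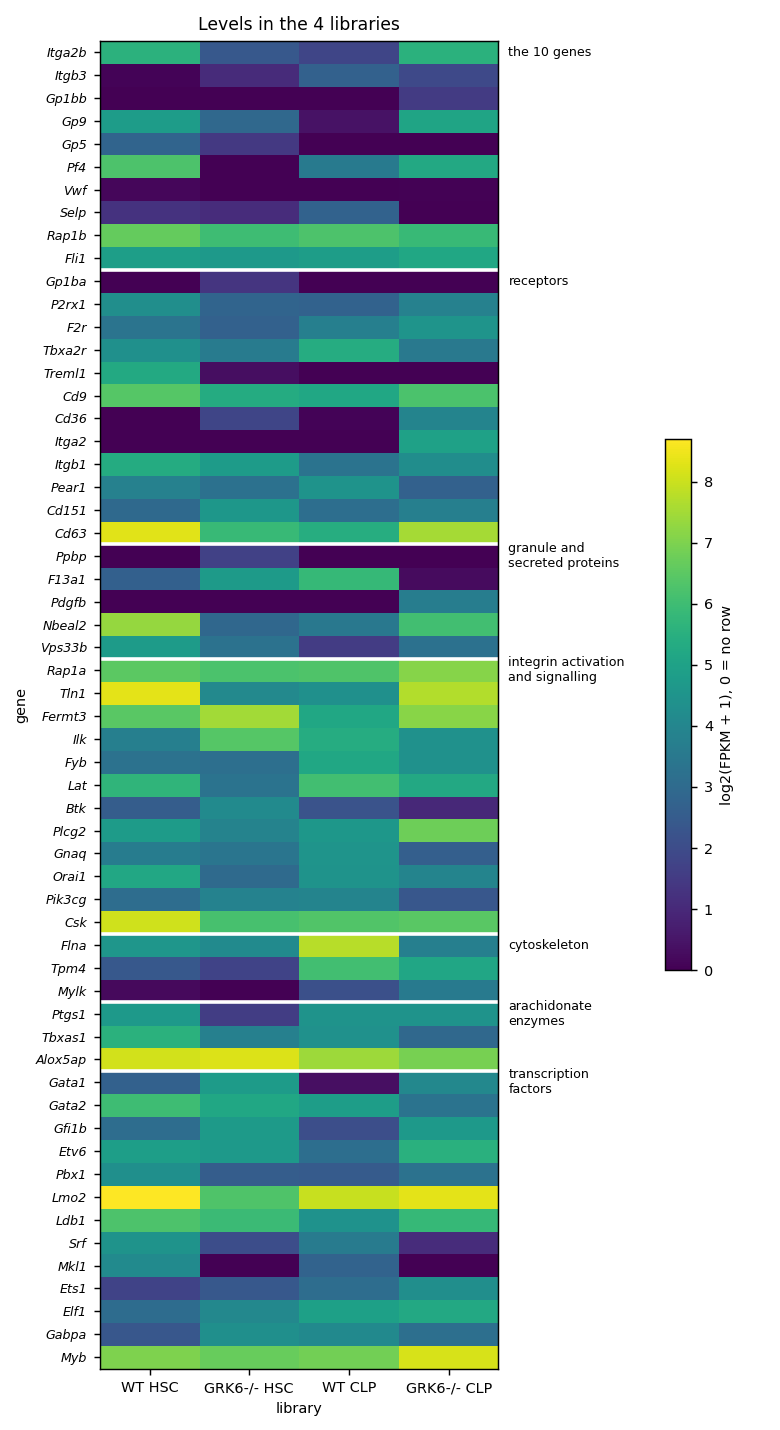
Levels as log2(FPKM + 1) (color, 0 for no row) in the 4 libraries (columns) for the 10 members (top block) and the named genes of the list (blocks below, by role). Tln1, Nbeal2 and Cd63 are bright in WT HSC and GRK6-/- CLP like Itga2b, Gp9 and Pf4, whereas Gata1 and Gfi1b are brighter in both GRK6-/- libraries.

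Genes of other cell types differed between the same libraries, and their part in the levels of the members was not tested. The erythroid list, with 7 of its 10 genes analysed, summed to 38.2 FPKM in WT and 746 in GRK6-/- HSC, and 19.8 in WT and 17584 in GRK6-/- CLP. Most of the last value was the alpha globin gene Hba-a2, at 17220 FPKM, while Klf1, an erythroid transcription factor, had 73.3 FPKM there against 0.160 in WT CLP. Gata1 and Gfi1b, which erythroid cells use as well, were high in the same pair of libraries. The libraries with the most Itga2b, Gp9 and Pf4 included both GRK6-/- CLP, with the highest erythroid sum, and WT HSC, with a sum of 38.2 FPKM. The endothelial list, with 7 of 8 genes analysed, ranged from 89.3 FPKM in GRK6-/- CLP to 227 in WT CLP. Cdh5, its defining cadherin, had no row in HSC and at most 0.113 FPKM in CLP. Egfl7 of the same list had 67.1 and 164 FPKM in WT and GRK6-/- HSC and 198 and 54.0 in CLP. Pecam1 and Tie1 also had at least 1 FPKM in each library, while Tek, Emcn and Esam did not. Mast cell and basophil genes, 3 of 6 analysed, were highest in HSC, with 151 and 141 FPKM, against 25.6 in WT and 1.27 in GRK6-/- CLP. B-lineage genes, 6 of 7 analysed, summed to 41.9 and 35.5 FPKM in WT and GRK6-/- HSC and to 258 and 1058 in CLP, and myeloid genes, 9 of 9 analysed, to between 7744 FPKM in GRK6-/- CLP and 17758 in WT HSC. The megakaryocyte list, which holds 5 of the members, summed to 170 FPKM in WT and 37.2 in GRK6-/- HSC, and 72.9 in WT and 159 in GRK6-/- CLP, and 7 of its 10 genes were analysed.

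**Figure D4:**
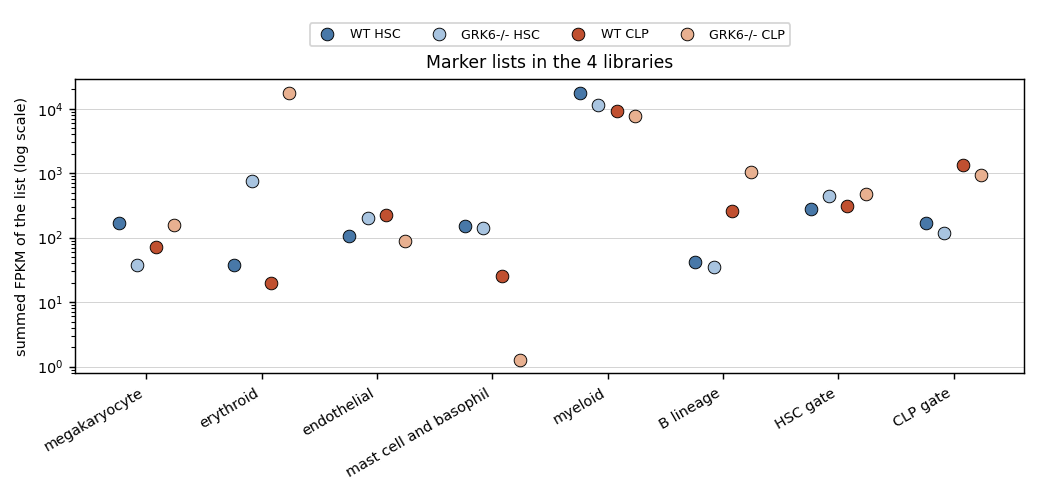
Summed FPKM (y axis, log scale) of 8 marker lists (x axis) in the 4 libraries, with 1 point per library. The megakaryocyte list, which includes some of the members themselves, is highest in WT HSC and GRK6-/- CLP at 170 and 159 FPKM. The erythroid list is highest in GRK6-/- CLP at 17584 and lowest in WT CLP at 19.8.

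The genes nearest in level to Itga2b, Pf4 and Vwf were found by the distance of log2(FPKM + 1) over the 4 libraries, among 11230 genes with at least 1 FPKM in at least 1 of them. Wipi1, which binds membranes in autophagy, was nearest to Itga2b at a distance of 0.58, with 39.0 and 4.53 FPKM in WT and GRK6-/- HSC and 2.11 and 32.9 in CLP. Krit1 and Birc3 followed at 0.81 and 0.91. Nearest to Pf4 were 1700029I15Rik at 0.86, Gps1 at 1.32 and Lctl at 1.42, all without a row in GRK6-/- HSC. The genes nearest to Vwf were Cyb561, Klhl3 and Epha7, each at about the minimum of 1 FPKM in WT HSC, while Vwf itself stayed at 0.114 FPKM or less. With 4 values per gene, such likeness is a description.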

How the data were processed

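Gene levels of 4 libraries, HSC and CLP of WT and of GRK6-/- mice, were analysed. The authors aligned 100-bp paired-end reads to mm9 with the Tuxedo suite (TopHat 1.4.0 by the submitters' processing notes) and deposited 1 FPKM value per gene and library, without counts or confidence bounds. The annotation version and the strand setting are not given in the sources used here. The amplification by PCR and the pooling of few cells preceded these values, so that 1 cell or 1 amplified molecule can weigh heavily in a level.

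Rows of the same symbol were summed, and no row was taken as 0 FPKM. Genes named together with others in a joint row of any library were left out, 180 of which also had a row of their own, and 12417 remained. Ratios were computed as log2 of FPKM + 1, which understates the change of low genes, and genes were called 2-fold apart at an absolute log2 ratio of at least 1. With 1 library per group no test was made. Members and lists were chosen with earlier results of these data known, and the motifs after the promoter windows had been seen. Named genes were the members, Grk6, genes that complete a complex of the members, and up to 5 per role and comparison by the size of the ratio, of those 2-fold apart with at least 10 FPKM in the higher library, besides the 3 nearest genes of Itga2b, Pf4 and Vwf. The values of 1 gene that this rule names are not reported here. The 12 listed symbols without a row in any library were not analysed here. Gp6, Tubb1 and Clec1b were among them, as was Evi1, an older symbol of Mecom.

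Fragments were estimated from the steps of values under 0.3 FPKM in genes with a single annotated transcript (GENCODE vM1) of at least 1500 bp. Between 73.8% and 81.6% of these lay within 10% of 1, 2 or 3 fragments. The estimates ignore the correction for effective length and cover counting only. The scripts were tested on simulated data. Python 3.11.15, numpy 2.4.6, pandas 2.3.3 and matplotlib 3.10.9 were used. Alternatives were the pseudocount, a filter on low values, rescaling, a threshold of 4-fold, the highest row of each symbol and, added after seeing the data, keeping genes of joint rows.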

Additional observations from a re-analysis of the deposited data

Results flagged for a closer look

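For 11 of the genes that the naming rule picks, libraries labelled GRK6-/- and WT were 2-fold apart in opposite directions in HSC and in CLP. The same held for Mecom, Clu and Vegfa, which the rule does not pick. Each value is a log2 ratio of FPKM + 1 from 1 library against 1, and whether the ratios differ between HSC and CLP could not be tested. Among the members these were Itga2b, at -3.21 in HSC and 3.74 in CLP, Gp9, at -1.86 and 4.65, and Pf4, at -6.26 and 1.69. The HSC value of Pf4 depends on the pseudocount because GRK6-/- HSC had no row. Among the other genes, Tln1 had -4.24 in HSC and 3.33 in CLP, and Nbeal2 -4.41 and 2.56. Cd63 had -2.46 and 2.10, Vps33b -1.48 and 1.70, P2rx1 -1.47 and 1.07, Cd9 -1.06 and 1.06, and Mecom -1.02 and 1.60. The opposite order was seen for F13a1, at 2.10 in HSC and -5.58 in CLP, and Btk, a kinase of platelet and B-cell signaling, at 1.59 and -1.21. Over all genes, 5.69% were lower in GRK6-/- HSC and higher in GRK6-/- CLP, and 5.07% the other way.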

How the results depend on the processing

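With an absolute log2 ratio of at least 2, the members called numbered 2 in HSC, 3 in CLP and 3 between the GRK6-/- populations, in place of 4, 5 and 6, beside 12.4%, 24.8% and 19.1% of all genes. The counts for the other platelet and megakaryocyte genes became 16 of 96 in HSC and 15 of 91 in CLP, in place of 42 and 41. They became 14 of 93 between the WT and 12 of 96 between the GRK6-/- populations, in place of 45 and 32. In that order, 12.4%, 24.8%, 20.5% and 19.1% of all genes were past a log2 ratio of 2, and 37.4%, 50.0%, 46.5% and 45.6% were 2-fold apart. No other count moved by over 1.5 times under the alternatives run. At a pseudocount of 0.1 FPKM the members called in HSC numbered 6 in place of 4. Itgb3 was added as higher and Vwf as lower in GRK6-/- HSC. With a pseudocount of 0.1 FPKM, 14 of the 37 log2 ratios of members moved by over 1.5 times, none of the called ratios changed sign, and under the filter, rescaling, highest row and joint row alternatives no member's ratio moved that far. The median log2 ratios used for rescaling were at most 0.038. No paired analysis was possible because each group was 1 library. The precision of Vwf, Gp1bb and of the lowest values of Itgb3 and Gp9 was limited by depth, with 1 to 9 fragments behind them.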
